A study of Homo sapiens with 9 samples.

Results

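The splicing machinery was followed here through 70 of the 25084 genes measured in LAN5, an established neuroblastoma cell line of human origin with extra copies of the oncogene MYCN. The 70 genes were chosen by symbol alone: the SR proteins (SRSF), the heterogeneous nuclear ribonucleoproteins (HNRNP), the SF3A and SF3B subunits, the small nuclear ribonucleoprotein genes (SNRP), the PRPF genes and both U2AF genes, with numbered pseudogenes left out. RNA had been sequenced in 9 libraries, 3 after a control siRNA (siCTR), 3 after an siRNA against MYCN (labelled siMYCN_2) and 3 after an siRNA against HAND2 (labelled siHAND2_3), all collected 72 h after nucleofection. MYCN and HAND2 encode transcription factors, and the series asks which genes they regulate in this line. Each target had 1 siRNA in these libraries, and all groups share the MYCN copies of the line and the nucleofection. The labels do not say that the libraries of a group came from separate cultures, so p-values measure the spread between these libraries, which may be technical.

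Splicing removes introns in the spliceosome, which is built from small nuclear ribonucleoproteins (snRNPs) that recognise the splice sites and the branch point and then rearrange into a catalytic core. Each spliceosomal snRNP except U6 carries a ring of Sm proteins, which is loaded by the SMN complex after PRMT5 and its partners have methylated some of the ring proteins. SR proteins mostly promote the use of nearby exons and hnRNP proteins often oppose them, and MYC proteins are known to raise the expression of many splicing genes, Sm proteins and PRMT5 among them.

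Expression is given in CPM, read counts put on 1 common library total. Depth was between 21.1 M and 32.7 M assigned reads per library, which at 1 CPM leaves a counting CV of 17.5% to 21.8%. MYCN averaged 70.0% of its siCTR level in siMYCN and 49.6% in siHAND2, and HAND2 averaged 114% in siMYCN and 54.2% in siHAND2. MYCN was lower than siCTR in both knockdowns, and lower in siHAND2 than in siMYCN. Of 8 neuroblastoma markers 7 had at least 1 CPM, with sums of 2070 to 2210 CPM (siCTR), 2630 to 2710 CPM (siMYCN) and 2120 to 2220 CPM (siHAND2). In siMYCN 6 of these 7 were called higher and none lower. In siHAND2 1 of them was called higher and 3 lower, with log2 fold changes from -1.01 to 0.95. Over all genes tested 24.5% were called higher and 11.4% lower in siMYCN, and 18.1% and 11.8% in siHAND2. Of 8 fibroblast markers 6 had at least 1 CPM, with sums of 217 to 232, 266 to 274 and 563 to 643 CPM in the same order, and POSTN was under 0.1 CPM (siCTR) and siMYCN. Of the 6 fibroblast markers tested, 5 were called higher in siMYCN and all 6 in siHAND2, where log2 fold changes ran from 0.98 to 3.07. The part of these markers in the results below was not tested. Schwann markers (4 of 5 in the table) summed to at most 2.68 CPM and blood markers (2 of 5 in the table, PTPRC under 0.1 CPM) to at most 0.655 CPM. The sum of 15 proliferation genes was 4620 to 4730 CPM (siCTR), 4650 to 4680 CPM (siMYCN) and 4710 to 4850 CPM (siHAND2), and fewer cells of a type cannot be told apart from less RNA per cell in such bulk samples.

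Of the 70 splicing genes, 69 had at least 1 CPM in at least 3 libraries and were tested. The exception was HNRNPCL1, a relative of HNRNPC, at 0.0001 CPM, the value the table holds for no reads, to 0.0686 CPM in single libraries. Mean levels of the others ran from 12.8 CPM (HNRNPA1L2) to 2415 CPM (HNRNPA1), with a median of 121 CPM against 23.1 CPM over all 14495 genes tested, and 58 genes had at least 50 CPM. Together the 70 genes took 1.63% to 1.78% of the CPM of a library. Per kb of the canonical transcript, the highest siCTR levels of each class were 692 CPM per kb for HNRNPA1, 322 for SNRPD2, 152 for SRSF2, 88.9 for SNRPC, 87.0 for SF3B2, 63.5 for U2AF2, 48.5 for PRPF8 and 32.5 for PRPF19. The cells may use other isoforms, which would move these values per kb.

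Promoter sequence was read for 62 of the splicing genes, since several of them moved together and MYCN binds DNA at CACGTG, the canonical E-box. The windows are those of RefSeq on GRCh38.p14, from 250 bases before to 50 bases after each annotated start, 85 in all because some genes have several starts. The letters CACGTG, which read the same on both strands, were present in 10 of the 85 windows (11.8%), against 7.26% of all 35116 windows and 9.43% of those of the genes tested. Per gene the shares were 12.9% of the splicing genes and 12.8% of the genes tested. The windows with these letters belonged to 8 genes: HNRNPA3, HNRNPD, HNRNPDL, HNRNPH2, HNRNPH3, HNRNPM, HNRNPUL1 and SF3B1. Of these 7 are hnRNP genes, 33.3% of the 21 hnRNP genes with windows. None of the 15 windows of 7 Sm genes held these letters, and of the 13 genes that fell in siMYCN, 10 had windows, none of whose 14 windows held these letters, which says only that they are not in these windows. CATCTG or its reverse complement CAGATG, another form of the E-box family CANNTG, was found in 10.6% of the windows of splicing genes, against 14.7% of all windows and 10.2% of those of the genes tested. It was in 5 of the 15 windows of Sm genes (33.3%) and 5 of the 14 of genes that fell in siMYCN (35.7%), and those windows overlap where a gene has several starts: they belong to 3 Sm genes (SNRPD2, SNRPG and SNRPN) and 3 that fell (SF3A3, SNRPD2 and SNRPG). Per gene that is 42.9% of the 7 Sm genes and 30.0% of the 10 that fell, beside 11.3% of the splicing genes and 13.4% of the genes tested. The window with both words, of HNRNPDL, holds them apart. A match is a description of the letters and not a measured binding site. The parts of 4 windows that lie outside the span of the gene in the deposited table are printed 5′ to 3′ on the strand of the gene, with CACGTG in capitals. They show a pair of genes that fell in siMYCN without the motif (SNRPB and SNRPC), a gene that differed between the knockdowns with it (HNRNPDL) and a gene past no threshold with it (SF3B1).
SNRPB, chr20:2470854-2471039, minus strand: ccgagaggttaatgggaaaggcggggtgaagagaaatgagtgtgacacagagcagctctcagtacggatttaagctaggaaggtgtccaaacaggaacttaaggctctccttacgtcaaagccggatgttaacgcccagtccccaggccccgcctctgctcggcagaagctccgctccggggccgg
SNRPC, chr6:34757255-34757504, plus strand: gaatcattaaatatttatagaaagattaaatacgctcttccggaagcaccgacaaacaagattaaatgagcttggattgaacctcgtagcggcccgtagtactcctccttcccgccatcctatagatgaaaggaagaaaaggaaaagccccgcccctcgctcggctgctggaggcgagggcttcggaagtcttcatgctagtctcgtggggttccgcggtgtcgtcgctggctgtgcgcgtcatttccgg
HNRNPDL, chr4:82430463-82430712, minus strand: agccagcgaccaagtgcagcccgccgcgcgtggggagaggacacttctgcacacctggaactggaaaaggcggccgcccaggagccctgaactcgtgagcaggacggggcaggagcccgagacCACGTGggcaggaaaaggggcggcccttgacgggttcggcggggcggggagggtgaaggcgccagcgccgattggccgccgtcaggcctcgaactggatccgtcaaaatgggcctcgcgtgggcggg
SF3B1, chr2:197435094-197435343, minus strand: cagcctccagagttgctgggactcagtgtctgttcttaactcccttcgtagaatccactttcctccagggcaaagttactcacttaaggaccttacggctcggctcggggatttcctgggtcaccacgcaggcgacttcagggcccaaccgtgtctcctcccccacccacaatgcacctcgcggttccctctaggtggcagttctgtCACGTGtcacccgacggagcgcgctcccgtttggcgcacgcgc
The motif began 127 bases before the annotated start used for HNRNPDL and 43 bases before the one used for SF3B1.

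The first comparison, siMYCN against siCTR, showed a fall of 6 of the 8 Sm ring genes and of HNRNPA1, while SNRPN of the same ring rose. Changes were small: the log2 fold changes of the 69 genes, taken on log2(CPM + 1), ran from -0.30 to 0.23, and none reached a 2-fold change. By limma with Benjamini-Hochberg adjustment over all genes tested, 8 splicing genes rose and 13 fell at an adjusted p under 0.05. That is 11.6% and 18.8% of the 69, beside 24.5% of all genes tested called higher and 11.4% called lower (35.9% in either direction). Abundant genes are called more often: of all genes averaging 50 CPM or more, 31.7% were higher and 16.1% lower (47.8% in all), and of the 58 such splicing genes 7 were higher and 13 lower (34.5%). The siMYCN libraries all lay above the siCTR libraries for 14 splicing genes and below them for 15, beside 33.4% and 16.1% of all genes tested. The median log2 fold change was 0.02 for the splicing genes and 0.06 for all genes tested.

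**Figure D1:**
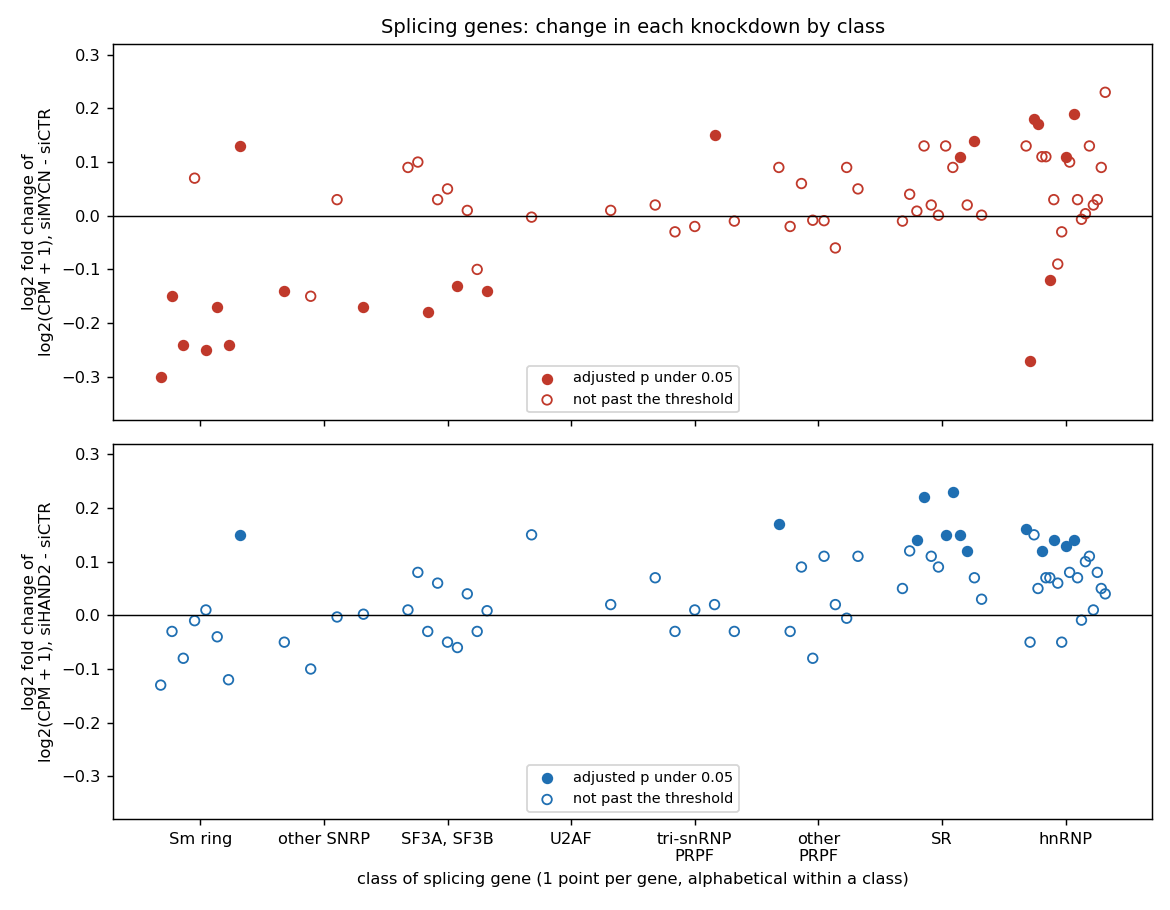
Log2 fold change of log2(CPM + 1) for each of the 69 splicing genes tested, by class, in siMYCN (upper panel) and siHAND2 (lower panel) against the same 3 siCTR libraries; filled points passed an adjusted p of 0.05 and open points did not. In siMYCN 6 of 8 Sm ring genes lie below 0 as filled points, and in siHAND2 all 12 SR protein genes lie above 0, 6 of them filled.

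SNRPB encodes the SmB and SmB′ proteins, and its level was 229, 239 and 233 CPM (siCTR), 189, 198 and 182 CPM (siMYCN) and 224, 217 and 200 CPM (siHAND2). The siMYCN libraries lay below every other library, and the log2 fold change against siCTR was -0.30 ± 0.048 (SE, adjusted p = 0.000139 by limma, 3 libraries against 3). SNRPE was at 98.9, 97.2 and 94.8 CPM (siCTR), 79.5, 81.1 and 83.6 CPM (siMYCN) and 91.5, 94.9 and 107 CPM (siHAND2), a log2 fold change of -0.25 ± 0.054 (adjusted p = 0.00174) in siMYCN. SNRPE encodes SmE, and again siMYCN stood below both other groups without overlap. SNRPD2, for SmD2, was at 160.0, 169 and 168 CPM (siCTR), 141, 143 and 137 CPM (siMYCN) and 153, 164 and 155 CPM (siHAND2). Its fall in siMYCN was -0.24 ± 0.043 (adjusted p = 0.000406), with no overlap between siMYCN and either other group.

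SNRPG, for SmG, was at 65.6, 67.1 and 70.7 CPM (siCTR) and 58.5, 58.7 and 54.5 CPM (siMYCN), a log2 fold change of -0.24 ± 0.055 (adjusted p = 0.00291). SNRPD1, for SmD1, was at 158, 155 and 153 CPM (siCTR) and 139.5, 139.6 and 142 CPM (siMYCN), a log2 fold change of -0.15 ± 0.040 (adjusted p = 0.0091). The groups did not overlap for either gene, nor for SNRPF (SmF), whose log2 fold change was -0.17 (adjusted p = 0.0126). SNRPF was not called without siCTR replicate 3 or siMYCN replicate 2, where its log2 fold change stayed between -0.20 and -0.14 and its adjusted p rose to as much as 0.0676. Of the 8 ring genes, 6 fell, 1 rose and 1 was not called, with a median of -0.20. The 6 falls are 75.0% and the rise 12.5%, beside 11.4% and 24.5% of all genes tested. The 6 that fell summed to 785 ± 9.69 CPM (siCTR) (SD, n = 3), 667 ± 11.01 CPM (siMYCN) and 747 ± 6.36 CPM (siHAND2), which is 85.0% and 95.2% of siCTR. These 6 also fell under median-ratio rescaling and under quantile normalization of the libraries.

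The other Sm genes moved differently. SNRPD3, for SmD3, was at 182, 173 and 183 CPM (siCTR) and 196, 181 and 189 CPM (siMYCN), groups that overlapped, with a log2 fold change of 0.07 (adjusted p = 0.209). SNRPN encodes SmN, a close relative of SmB that is expressed mainly in neurons and is imprinted. It was at 158, 168 and 163 CPM (siCTR), 174, 179 and 182 CPM (siMYCN) and 190.2, 177 and 177 CPM (siHAND2), and it rose in siMYCN by 0.13 ± 0.043 on the log2 scale (adjusted p = 0.0277). All 6 knockdown libraries were above all 3 siCTR libraries. The rise in siMYCN was not called without siCTR replicate 1 or 3 or siMYCN replicate 2 or 3 (adjusted p up to 0.121), and fell to 0.07 under either other scaling (adjusted p = 0.234 with median-ratio rescaling and 0.192 with quantile normalization). SNURF, which shares its locus and transcript with SNRPN, was listed separately at a mean of 1.17 CPM (siCTR).

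With SNRPB lower and SNRPN higher, the CPM of SNRPN divided by that of SNRPB was 0.693, 0.704 and 0.700 (siCTR), 0.924, 0.903 and 1.005 (siMYCN) and 0.848, 0.816 and 0.882 (siHAND2). The means were 0.699 ± 0.0058, 0.944 ± 0.0538 and 0.849 ± 0.0333 (SD, n = 3), and the 3 groups did not overlap. This ratio was chosen after the values were seen and is a description with no test. It is not adjusted for length, and reads that fit both genes may have been shared between them by a counting rule not given in the sources used here.

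**Figure D2:**
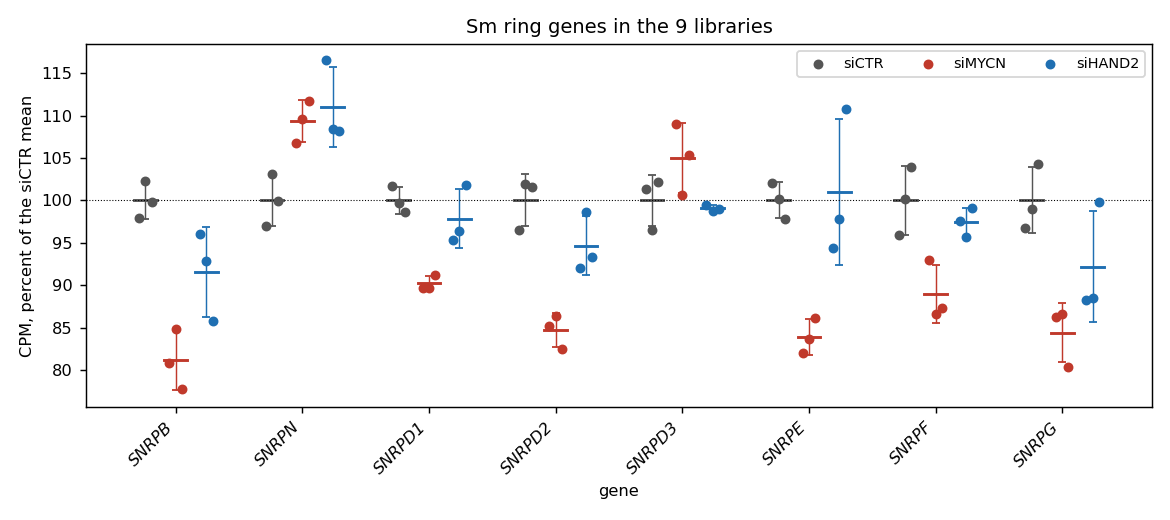
CPM of the 8 Sm ring genes in each of the 9 libraries as a percentage of the siCTR mean of that gene; points are libraries, the bar is the group mean and the whisker 1 SD (n = 3). The siMYCN libraries lie below the siCTR libraries for SNRPB, SNRPD1, SNRPD2, SNRPE, SNRPF and SNRPG, overlap them for SNRPD3 and lie above them for SNRPN.

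The U1 and U2 proteins and the SF3 complexes held 5 further falls in siMYCN. Of the 4 U1 and U2 genes named SNRP, 2 fell and none rose, beside 11.4% of all genes tested called lower and 24.5% higher. SNRPC, for the C protein of U1, which helps it to bind the 5′ splice site, was at 69.1, 71.4 and 74.5 CPM (siCTR), 65.0, 61.8 and 63.7 CPM (siMYCN) and 73.2, 69.3 and 72.6 CPM (siHAND2). Its log2 fold change in siMYCN was -0.17 ± 0.046 (adjusted p = 0.00879), with adjusted p = 0.052 without siCTR replicate 3. SNRPA, for the A protein of U1, fell by 0.14 on the log2 scale (adjusted p = 0.0367), a call lost without siCTR replicate 1 or 2 or siMYCN replicate 2 or 3 (adjusted p up to 0.143). The U2 proteins SNRPA1 and SNRPB2 had log2 fold changes of -0.15 (adjusted p = 0.0732) and 0.03 (adjusted p = 0.701).

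Of the 9 SF3 genes, whose products bind the branch point region with U2, 3 fell and none rose. The falls are 33.3%, beside 11.4% of all genes tested called lower, and 24.5% of all genes tested were called higher. SF3A3 was at 86.5, 83.0 and 86.9 CPM (siCTR), 75.0, 77.3 and 74.3 CPM (siMYCN) and 86.5, 83.3 and 82.2 CPM (siHAND2). Only the siMYCN libraries stood apart, with a log2 fold change of -0.18 ± 0.043 (adjusted p = 0.00459). SF3B3 fell by 0.13 on the log2 scale (adjusted p = 0.0151), which was lost without siCTR replicate 1 or 3 or siMYCN replicate 2 (adjusted p up to 0.0696). SF3B6, the subunit next to the branch point, fell by 0.14 on the log2 scale (adjusted p = 0.0338), which was lost without any of the 6 libraries of the contrast (adjusted p up to 0.121). SF3B1, the scaffold of the SF3B complex and a gene often mutated in myelodysplasia, was at 545, 547 and 552 CPM (siCTR) and 552, 553 and 573 CPM (siMYCN), with a log2 fold change of 0.03 (adjusted p = 0.663). SF3B2 had 0.05 (adjusted p = 0.527), and the median of the 9 genes was 0.0099.

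U2AF, which reads the 3′ splice site, and the PRPF genes gave 1 call in siMYCN. Of the 2 U2AF genes, 5 tri-snRNP PRPF genes and 8 other PRPF genes, only PRPF6 was called. Over all genes tested 35.9% were called in either direction. U2AF2 was at 137, 134 and 139 CPM (siCTR) and 149, 132 and 132 CPM (siMYCN), and its log2 fold change was 0.01 (adjusted p = 0.909). U2AF1 had a log2 fold change of -0.0026 (adjusted p = 0.978), but its reads are shared with a near-identical copy listed as U2AF1L5, and how the counting split them is uncertain. The sum of U2AF1 and U2AF1L5 was 76.8 ± 1.11 CPM (siCTR), 81.1 ± 0.262 CPM (siMYCN) and 82.2 ± 2.07 CPM (siHAND2) (SD, n = 3). PRPF8, the protein at the heart of the catalytic core, was at 362, 343 and 355 CPM (siCTR) and 368, 339 and 346 CPM (siMYCN), with a log2 fold change of -0.01 (adjusted p = 0.872). PRPF6, which bridges U5 and U4/U6 in the tri-snRNP, rose by 0.15 on the log2 scale (adjusted p = 0.0433). That call was lost without siCTR replicate 1, 2 or 3, siMYCN replicate 1 or 3 or siHAND2 replicate 2 (adjusted p up to 0.199), and under both other scalings. None of the 8 PRPF genes outside the tri-snRNP passed the limma test and none had an unadjusted p under 0.05. Over all 14495 genes tested 4440 were higher and 2047 lower at that unadjusted p. PRPF19, the ubiquitin ligase of the complex named after it, had a log2 fold change of -0.02 (adjusted p = 0.837).

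Among the 12 SR protein genes 2 rose in siMYCN (16.7%, beside 24.5% of all genes tested) and none fell (beside 11.4%). Their median was 0.03, beside 0.06 for all genes tested. SRSF6 rose by 0.11 (adjusted p = 0.039) and SRSF8, a retrogene related to SRSF2, by 0.14 (adjusted p = 0.0263) on the log2 scale. Leaving out any of the 6 libraries of the contrast ended the call of SRSF6 (adjusted p up to 0.128), and leaving out siCTR replicate 1 or 3 or siMYCN replicate 1 or 3 that of SRSF8 (adjusted p up to 0.0987). SRSF1, the founding SR protein and a known oncogene, was at 589, 582 and 610.4 CPM (siCTR) and 596, 576 and 595 CPM (siMYCN), with a log2 fold change of -0.01 (adjusted p = 0.861). SRSF3 had 0.00082 (adjusted p = 0.99) and SRSF2 0.02 (adjusted p = 0.713). The signs of the small SR changes depended on the scaling: 11 of 12 were positive in CPM, 5 with median-ratio rescaling and 7 with quantile normalization.

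Of the 21 hnRNP genes tested 4 rose and 2 fell in siMYCN, with a median of 0.09. That is 19.0% and 9.52%, beside 24.5% and 11.4% of all genes tested. HNRNPA1, which binds splicing silencers and is the most abundant of the splicing genes here, was at 2598, 2677 and 2502 CPM (siCTR), 2230.0, 2086 and 2152 CPM (siMYCN) and 2566, 2453 and 2473 CPM (siHAND2). The siMYCN libraries lay below the other 6, and the log2 fold change was -0.27 ± 0.046 (adjusted p = 0.000308). The 17 HNRNPA1 pseudogenes in the table summed to 22.4 CPM, 0.928% of the parent gene. HNRNPA1L2, an expressed retrocopy of HNRNPA1, went the other way, at 12.02, 11.7 and 11.6 CPM (siCTR) and 13.7, 13.8 and 13.1 CPM (siMYCN), a log2 fold change of 0.18 (adjusted p = 0.0406). Its call was lost without any of the 6 libraries of the contrast (adjusted p up to 0.106), and so similar a copy may take reads of HNRNPA1.

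HNRNPC, which binds uridine tracts and masks cryptic splice sites, was at 865, 889 and 896 CPM (siCTR), 803, 816 and 821 CPM (siMYCN) and 941, 909 and 937 CPM (siHAND2). It fell in siMYCN by 0.12 on the log2 scale (adjusted p = 0.0222), but not without siCTR replicate 2 or 3 or siMYCN replicate 1 (adjusted p up to 0.0855), and under quantile normalization its log2 fold change was 0.02 (adjusted p = 0.56), the other direction. HNRNPH3, a relative of the G-run binder HNRNPH1, rose from 158, 157 and 150.0 CPM to 185, 169 and 179 CPM, by 0.19 ± 0.052 on the log2 scale (adjusted p = 0.00929). That call was kept without each library in turn, with adjusted p up to 0.0461, and lost with median-ratio rescaling (adjusted p = 0.0748) and quantile normalization (adjusted p = 0.0622). HNRNPA2B1, a relative of HNRNPA1 that also acts in RNA transport, rose by 0.17 (adjusted p = 0.0467), and HNRNPH1 by 0.11 (adjusted p = 0.0425). HNRNPH1 lost its call without any library of the contrast except siMYCN replicate 2 (adjusted p up to 0.158), and HNRNPA2B1 without any of the 6 or siHAND2 replicate 2 (up to 0.129). HNRNPUL2 had the highest log2 fold change of the 69 genes, 0.23 (adjusted p = 0.0515), and it overlaps a readthrough transcript listed as HNRNPUL2-BSCL2.

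**Figure D3:**
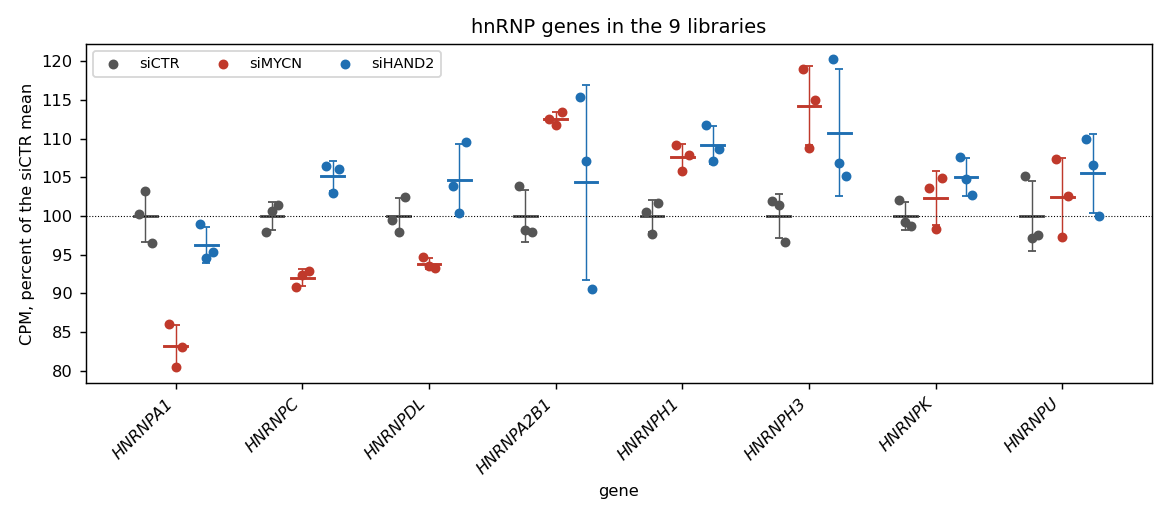
CPM of 8 hnRNP genes in each of the 9 libraries as a percentage of the siCTR mean; points are libraries, bars are group means and whiskers 1 SD (n = 3). HNRNPA1 and HNRNPC are lowest in siMYCN, and HNRNPH1 and HNRNPH3 are above siCTR in both knockdowns.

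The falls in siMYCN were called under more of the alternatives than the rises. Of the 13, 7 were called in all 18 alternatives run (HNRNPA1, SF3A3, SNRPB, SNRPD1, SNRPD2, SNRPE and SNRPG), and of the 8 rises none was. The 2 rescalings among the 18 lowered the median log2 fold change of all genes tested from 0.06 to 0.007 and 0.0. Such a shift works against small rises, so these counts do not compare rises and falls on equal terms. Median-ratio rescaling gave 0 rises and 17 falls, and quantile normalization 3 rises and 15 falls, so the share of calls that were rises went from 38.1% to 0% and 16.7% (from 68.3% to 50.6% and 49.3% over all genes tested). The 21 calls became 9 without siCTR replicate 3, 12 without siMYCN replicate 3, 13 without siCTR replicate 2, and 14 without siCTR replicate 1 or siMYCN replicate 1. Calls over all genes were not counted in these fits.

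The second comparison, siHAND2 against siCTR, showed a rise of 6 of the 12 SR protein genes, and no splicing gene was called lower. With median-ratio rescaling 2 splicing genes rose and 3, all of the Sm ring, fell. By limma 13 of the 69 splicing genes rose (18.8%, beside 18.1% of all genes tested called higher), and 0 fell, beside 11.8% of all genes called lower. At an unadjusted p under 0.05, 20 were higher and 1 lower, beside 3625 higher and 2256 lower of all 14495 genes tested. The median log2 fold change was 0.05, beside 0.04 for all genes tested, and values ran from -0.13 to 0.23. With 29.9% of all genes called in either direction, the share of splicing genes called was below that background. Of the 58 splicing genes with at least 50 CPM, 10 rose (17.2%), beside 21.7% of all genes at that level (38.2% in either direction). All siHAND2 libraries lay above siCTR for 21 splicing genes and below for 2, beside 25.8% and 16.6% of all genes tested.

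Of the 12 SR protein genes 6 rose, beside 18.1% of all genes tested called higher. The siHAND2 libraries were above all siCTR libraries for 10 of the 12, beside 25.8% of all genes tested by that same measure. SRSF5, whose product promotes the use of exons, was at 94.4, 98.6 and 101 CPM (siCTR), 102, 113 and 100.0 CPM (siMYCN) and 118, 108 and 119 CPM (siHAND2). Its log2 fold change of 0.23 ± 0.053 (adjusted p = 0.00399) was the largest of the 69 genes in siHAND2, and siMYCN lay between and overlapped both. SRSF6 was at 240.0, 238 and 245 CPM (siCTR), 259, 258 and 262 CPM (siMYCN) and 267, 258 and 276 CPM (siHAND2), a log2 fold change of 0.15 ± 0.039 (adjusted p = 0.00768) in siHAND2. These are the only 2 splicing genes called in siHAND2 under all 18 alternatives.

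SRSF12, a minor SR protein of restricted expression, was at 23.9, 23.6 and 24.4 CPM (siCTR) and 26.0, 27.5 and 30.8 CPM (siHAND2), a log2 fold change of 0.22 (adjusted p = 0.0311). The other SR genes that rose were SRSF4 (log2 fold change 0.15, adjusted p = 0.0241), SRSF11 (0.14, adjusted p = 0.0363) and SRSF7 (0.12, adjusted p = 0.0416). Leaving out siCTR replicate 2 ended each of these 4 calls. So did leaving out siCTR replicate 1 or 3 or siHAND2 replicate 2 or 3 for SRSF12 (adjusted p up to 0.113), siCTR replicate 3 or siHAND2 replicate 2 for SRSF4 (up to 0.0999), siCTR replicate 1 or 3 or siHAND2 replicate 3 for SRSF11 (up to 0.116), and siCTR replicate 1, siMYCN replicate 1 or siHAND2 replicate 1 or 3 for SRSF7 (up to 0.144). SRSF2 had a log2 fold change of 0.11 (adjusted p = 0.0708), SRSF10 0.12 (adjusted p = 0.0531), SRSF3 0.09 (adjusted p = 0.111), SRSF8 0.07, SRSF1 0.05 (adjusted p = 0.365) and SRSF9 0.03. All 12 were positive, and 11 of 12 under each of the other scalings. The 12 genes summed to 2434 ± 51.6 CPM (siCTR), 2480 ± 9.20 CPM (siMYCN) and 2609 ± 69.5 CPM (siHAND2) (SD, n = 3), or 107% of siCTR in siHAND2.

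The number of SR genes called depended on single libraries and on scaling. It was 2 without siCTR replicate 2, 3 without siCTR replicate 1, siCTR replicate 3 or siHAND2 replicate 3, and 4 without siHAND2 replicate 2. It was 2 with median-ratio rescaling, 3 with quantile normalization, with no filter and with no intensity trend, 4 in a fit of the 2 groups alone and 7 with the 5 CPM filter. Except for the 2 scalings, calls over all genes were not counted in these fits.

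**Figure D4:**
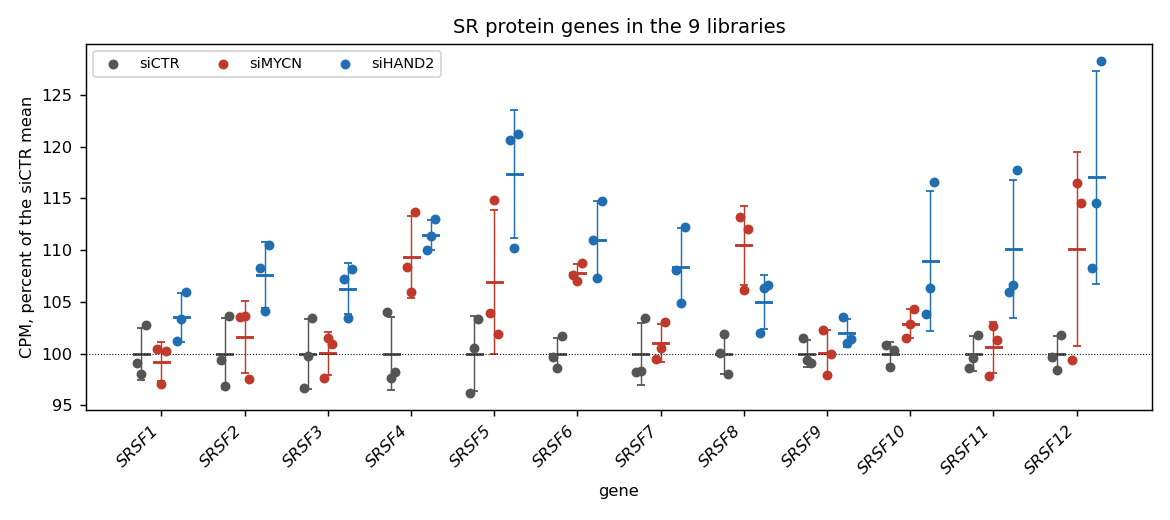
CPM of the 12 SR protein genes in each of the 9 libraries as a percentage of the siCTR mean; points are libraries, bars are group means and whiskers 1 SD (n = 3). The siHAND2 libraries lie above all siCTR libraries for 10 of the 12 genes, with the highest mean for SRSF5.

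Outside the SR proteins, 5 of 21 hnRNP genes (23.8%, beside the 18.1% of all genes called higher), SNRPN and PRPF18 rose in siHAND2, and no hnRNP gene did so with median-ratio rescaling. HNRNPH1 was at 787, 765 and 796 CPM (siCTR), 855, 829 and 844 CPM (siMYCN) and 875, 838 and 851 CPM (siHAND2), and its log2 fold change in siHAND2 was 0.13 ± 0.039 (adjusted p = 0.021). HNRNPH3 had 0.14 (adjusted p = 0.0459). With median-ratio rescaling the adjusted p was 0.126 for HNRNPH1 and 0.182 for HNRNPH3, and the comparison shares its siCTR libraries with that of siMYCN. HNRNPA0 had 0.16 (adjusted p = 0.0467), HNRNPD, which binds AU-rich elements, 0.14 (adjusted p = 0.0376), and HNRNPA3 0.12 (adjusted p = 0.0435). SNRPN rose by 0.15 ± 0.043 (adjusted p = 0.0147), and PRPF18, which acts in the second catalytic step, by 0.17 (adjusted p = 0.0388). Each of these 7 calls was lost without some single libraries. These were siCTR replicate 1 or siHAND2 replicate 1 for SNRPN (adjusted p up to 0.0771), and siCTR replicate 1 or 2 or siHAND2 replicate 1 for HNRNPH1 (up to 0.0986). Without siCTR replicate 2 or 3 or siHAND2 replicate 2 the calls of HNRNPH3, HNRNPA0, HNRNPD, HNRNPA3 and PRPF18 all ended, and other single libraries ended some of them too, with adjusted p up to 0.217, 0.18, 0.173, 0.148 and 0.152.

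None of the 13 genes that fell in siMYCN passed the threshold in siHAND2 in CPM with the settings above. SNRPB had a log2 fold change of -0.13 (adjusted p = 0.0531) in siHAND2 although its 3 libraries lay below all 3 siCTR libraries, and it was called lower in 5 of the 18 alternatives, both other scalings among them. SNRPG had -0.12 (adjusted p = 0.124) and SNRPD2 -0.08 (adjusted p = 0.175), which were called lower with median-ratio rescaling, SNRPG also without siHAND2 replicate 3. HNRNPA1 had -0.05 (adjusted p = 0.412), SNRPE 0.01 (adjusted p = 0.901) and SNRPD1 -0.03 (adjusted p = 0.592). SNRPD3, which was not called in siMYCN either, had -0.01 (adjusted p = 0.848). Over the 8 Sm ring genes the median was -0.03, with 6 of 8 negative. The SF3 genes had no call, SF3B1 standing at 0.06 (adjusted p = 0.353), and PRPF8 was at -0.03 (adjusted p = 0.609). U2AF2 had 0.02 (adjusted p = 0.843) and U2AF1 0.15 (adjusted p = 0.0693).

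The 13 calls in siHAND2 became 3 without siCTR replicate 2, 5 without siCTR replicate 3, and 6 without siCTR replicate 1 or siHAND2 replicate 2. Calls over all genes were not counted without these libraries. Median-ratio rescaling gave 2 rises and 3 falls, the falls being Sm ring genes, and quantile normalization 9 rises and 1 fall, so rises went from 13 of 13 calls to 2 of 5 and 9 of 10 (from 60.6% to 45.6% and 47.8% of calls over all genes tested).

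Because both knockdowns were set against the same 3 siCTR libraries, they were also compared with each other directly. By limma 10 splicing genes were higher in siHAND2 than in siMYCN (14.5%, beside 11.4% of all genes tested), and 0 were lower, beside 15.5% of all genes (26.9% in either direction). At an unadjusted p under 0.05, 19 were higher and 2 lower, beside 2476 higher and 3052 lower of all 14495 genes tested. Of the 58 genes with at least 50 CPM 10 were called (17.2%), beside 34.5% of all such genes. The libraries did not overlap for 23 splicing genes higher and 1 lower in siHAND2, beside 17.1% and 21.6% of all genes tested. The median difference was 0.04 on the log2 scale, beside -0.0063 for all genes tested. The 10 genes were the Sm genes SNRPB, SNRPD1, SNRPD2 and SNRPE, the U1 gene SNRPC, the U2 genes SF3A3 and SF3B6, and HNRNPA1, HNRNPC and HNRNPDL.

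SNRPE differed most, by 0.26 ± 0.054 (adjusted p = 0.00155), followed by HNRNPA1 with 0.21 ± 0.046 (adjusted p = 0.00245), HNRNPC with 0.19 ± 0.038 (adjusted p = 0.00119), and SNRPB and SNRPC with 0.17 each (adjusted p = 0.0124 and 0.0105). HNRNPDL, a relative of HNRNPD that regulates its own splicing, was at 584, 575 and 602 CPM (siCTR), 556, 549.5 and 548 CPM (siMYCN) and 609.8, 589.5 and 643 CPM (siHAND2). It passed the threshold in neither comparison with siCTR but differed between the knockdowns by 0.16 ± 0.041 (adjusted p = 0.00978). HNRNPA1, HNRNPC, HNRNPDL, SNRPC and SNRPE kept the call in all 18 alternatives. SNRPB lost it without siMYCN replicate 3 or siHAND2 replicate 1 (adjusted p up to 0.0629), SNRPD2 without siHAND2 replicate 2 (0.058), SF3A3 and SF3B6 without siMYCN replicate 1 or siHAND2 replicate 1 and some others (up to 0.0587 and 0.115), and SNRPD1 without any library but siHAND2 replicate 1 (up to 0.119). No SR protein gene was called between the knockdowns by limma (4 were higher at an unadjusted p under 0.05), but 3 of them, SRSF5, SRSF7 and SRSF11, were called higher in siHAND2 with median-ratio rescaling and with quantile normalization.

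A list of 87 further spliceosome genes outside the symbol rule was described in the same fit. In siMYCN 7 rose and 10 fell (19.5% called, median -0.0062), in siHAND2 10 rose and 9 fell (21.8%, median 0.02), and between the knockdowns 7 were higher in siHAND2 and 3 lower (11.5%). Over all genes tested the shares called were 35.9%, 29.9% and 26.9%. With other scalings the siMYCN calls were 2 rises and 21 falls (both scalings), and the siHAND2 calls 4 rises and 14 falls with median-ratio rescaling.

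The 14 genes of snRNP assembly act in the methylation of Sm proteins or in the loading of the ring. They gave 5 falls and no rise in siMYCN (35.7% lower, beside 11.4% of all genes tested), and 3 falls and no rise in siHAND2 (21.4%, beside 11.8%). Under each of the other scalings the falls were 7 in siMYCN and 4 in siHAND2. PRMT5, the methyltransferase of Sm proteins, was at 82.2, 85.5 and 81.1 CPM (siCTR), 70.6, 70.6 and 71.9 CPM (siMYCN) and 80.6, 78.3 and 69.95 CPM (siHAND2). Its log2 fold change against siCTR was -0.22 ± 0.052 for siMYCN (adjusted p = 0.00338) and -0.12 for siHAND2 (adjusted p = 0.0892). CLNS1A, which hands Sm proteins to the methylosome, was at 142, 150.4 and 143 CPM (siCTR), 117, 116 and 119 CPM (siMYCN) and 131, 126 and 134 CPM (siHAND2). It fell by 0.30 in siMYCN (adjusted p = 3.39e-05) and by 0.16 in siHAND2 (adjusted p = 0.00886, and 0.0622 without siCTR replicate 2) on the log2 scale.

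GEMIN5, the subunit of the SMN complex that recognises the small nuclear RNA, was at 81.3, 77.9 and 77.8 CPM (siCTR), 61.0, 59.4 and 63.6 CPM (siMYCN) and 70.8, 69.8 and 74.3 CPM (siHAND2). It fell by 0.36 in siMYCN (adjusted p = 1.78e-05) and by 0.14 in siHAND2 (adjusted p = 0.0313, up to 0.131 without single libraries) on the log2 scale, and the siMYCN libraries were the lowest. The other falls, named after their values were seen, were WDR77, the partner of PRMT5, with -0.32 in siMYCN (adjusted p = 0.000187) and -0.19 in siHAND2 (adjusted p = 0.0124), and SMN1 with -0.24 in siMYCN (adjusted p = 0.00367). SMN1 shares reads with its near-identical copy SMN2, and their sum was 77.3 ± 3.55 CPM (siCTR), 70.3 ± 1.43 CPM (siMYCN) and 72.7 ± 1.96 CPM (siHAND2) (SD, n = 3).

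CDC5L, a core subunit of the PRP19 complex, had the largest change of the 87 genes in siHAND2 and moved in opposite directions in the knockdowns. It was at 399, 387 and 412 CPM (siCTR), 501, 486 and 517 CPM (siMYCN) and 204, 209.9 and 223 CPM (siHAND2), with log2 fold changes against siCTR of 0.33 ± 0.044 for siMYCN (adjusted p = 3.18e-05) and -0.91 ± 0.044 for siHAND2 (adjusted p = 2.64e-10). The siHAND2 mean was 53.2% of siCTR. Of the 21 genes of the PRP19 and catalytic-step list, CDC5L included, 1 rose (CDC5L) and 2 fell in siMYCN. That is 4.76% and 9.52%, beside 24.5% and 11.4% of all genes tested. In siHAND2 3 rose and 2 fell, CDC5L among the falls, or 14.3% and 9.52%, beside 18.1% and 11.8%. RBM22, which contacts U6 in the active spliceosome, rose in siHAND2 by 0.26 ± 0.047 (adjusted p = 0.000546), from 54.3, 55.2 and 55.9 CPM to 67.2, 67.2 and 64.1 CPM.

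EFTUD2, the GTPase of U5, fell by 0.25 in siMYCN (adjusted p = 0.000244) and by 0.18 in siHAND2 (adjusted p = 0.00445) on the log2 scale. Of the 15 exon junction and SR-related genes 4 rose and none fell in siMYCN, but 1 rose and 3 fell under either other scaling. The 4 rises are 26.7%, beside 24.5% of all genes tested. In siHAND2 6 rose (40.0%, beside 18.1% of all genes tested) and 1 fell (6.67%, beside 11.8%). SON, a large nuclear speckle protein with an SR-rich domain, was at 172, 170.0 and 178 CPM (siCTR), 179, 195 and 199 CPM (siMYCN) and 202, 202 and 203 CPM (siHAND2). Its rise was 0.14 in siMYCN (adjusted p = 0.0239, up to 0.118 without single libraries) and 0.22 ± 0.044 in siHAND2 (adjusted p = 0.00126). RBM8A, the Y14 subunit of the exon junction complex, rose in siMYCN by 0.19 ± 0.040 (adjusted p = 0.00166).

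**Figure D5:**
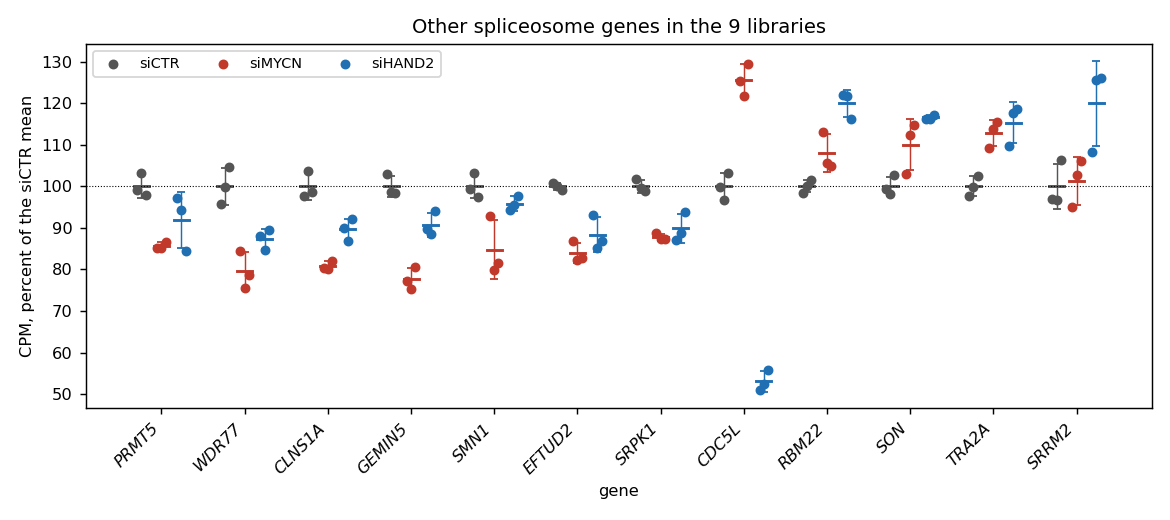
CPM of 12 further spliceosome genes in each of the 9 libraries as a percentage of the siCTR mean; points are libraries, bars are group means and whiskers 1 SD (n = 3), and genes outside the naming rule were picked after their values were seen. The assembly genes PRMT5, WDR77, CLNS1A and GEMIN5 have their lowest mean in siMYCN, and CDC5L stands above siCTR in siMYCN and at 53.2% of it in siHAND2.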

How the data were processed

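Total RNA libraries of LAN5 cells were compared, 3 per siRNA. The authors deposited 1 table of CPM values over 25084 genes, aligned with STAR 2.5.1 and handled in Partek, per the submitters' processing notes. Those notes name hg19, but the gene coordinates of the table match GRCh38: of 18215 symbols found in RefSeq GRCh38.p14 all 18215 lay on the same chromosome and 8209 had the identical start. Coordinates are therefore given as GRCh38. The counting rule, its use of strand and the annotation are not given in the sources used here, so overlapping genes and near-identical copies are uncertain.

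Tests used log2(CPM + 1), which understates changes of low genes. A gene needed 1 CPM or more in 3 or more of the 9 libraries (14495 kept, 10589 left out). A model with 1 mean per group over all 9 libraries was fitted with limma 3.58.1 in R 4.3.3 (eBayes, trend = TRUE, 10.1 prior df). Two-sided p-values were adjusted by Benjamini-Hochberg over all genes tested in each of 3 contrasts, with a threshold of 0.05. Errors are standard errors of limma or SDs over 3 libraries.

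Low CPM values fell on steps that gave the depth, 21.1 M to 32.7 M reads. Up to 20 steps, 79.8% to 81.3% of values were whole within 0.02 of a step, so no count model was used. Counting errors cover counting only, not copies made by PCR. Lengths are those of GENCODE canonical transcripts, matched by symbol for all 70 genes. On simulated data for siMYCN against siCTR (14243 genes tested), 100% of 100 genes changed by 1 on the log2 scale were called, 94% of 100 changed by 0.5, and 0.0855% of unchanged genes. The simulated libraries were independent, with the same spread set by hand for every gene and equal numbers of rises and falls. In these data rises and falls were uneven, so these shares cannot give the rate of false calls here.

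The genes and lists were chosen with earlier results of these data known, and no list was tested. Named by rule were 12 genes (SNRPB, SNRPD1, SNRPD3, SNRPN, SRSF1, SRSF3, HNRNPA1, HNRNPA1L2, SF3B1, PRPF8, U2AF1 and U2AF2), the 4 largest rises and falls per contrast among called genes averaging 5 CPM or more, and the gene of each class with the highest siCTR CPM per kb. Others appear where their class is given whole. Of the 87 further spliceosome genes the rule named PRMT5 and the 2 smallest p in each direction. The 18 alternatives were pseudocounts of 0.1 and 5, a filter of 5 CPM or none, median-ratio and quantile scaling, fits of 2 groups only, eBayes with no trend, a block for replicate number, and each of 9 libraries left out.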

Additional observations from a re-analysis of the deposited data

How the results depend on the processing

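With no filter on low values, siMYCN gave 3 rises of splicing genes, and siHAND2 4 calls, all 4 rises. Median-ratio rescaling gave siMYCN 0 rises and a median of -0.039, and siHAND2 5 calls (2 rises, 3 falls) and a median of 0.006. For the 87 further genes it gave 2 rises and 21 falls in siMYCN and 4 rises and 14 falls in siHAND2. Quantile normalization gave siMYCN 3 rises and a median of -0.023, with 2 rises and 21 falls among the further genes, and siHAND2 6 rises among the further genes. Between the knockdowns it gave 18 calls, all 18 higher in siHAND2, with a median of 0.066, and 20 calls among the further genes (17 higher). The 2 groups alone gave siHAND2 7 calls, all 7 rises. Without the intensity trend siMYCN had 12 calls (3 rises, and 3 rises among the further genes) and siHAND2 4 calls, all 4 rises, with 5 rises among the further genes. HNRNPC reversed in siMYCN under quantile normalization (0.02). Over all genes tested the shares called with median-ratio rescaling and quantile normalization were 32.8% and 32.6% in siMYCN, and 29.3% and 28.6% in siHAND2. Between the knockdowns they were 27.3% and 27.6%. For the other alternatives, the replicate block and single libraries left out included, calls over all genes were not counted. Changes in the number of splicing genes called there cannot be told apart from changes over all genes. The cause of these shifts was not tested.

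The replicate numbers were not treated as pairs, since the labels give no batch. Same-numbered libraries did tend to deviate together, in 6 of 9 pairs (correlation above 0.1, range -0.0399 to 0.305). Pairs with different numbers ranged from -0.296 to 0.141, and 7 of 9 libraries correlated best with their own number. Whether same-numbered libraries were handled together is not given in the labels. With the replicate block siMYCN had 14 rises (11 among the further genes), siHAND2 had 18 calls in place of 13 (17 rises, SRSF2, SRSF10, U2AF1 and PRPF4B among those gained, and a fall of SNRPB), 8 SR protein genes rose there and 3 (SRSF5, SRSF7 and SRSF11) were higher than in siMYCN, and the knockdowns differed in 17 splicing genes (2 lower in siHAND2) and 17 further genes (7 lower).

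Leaving out 1 library gave 9 to 28 calls in siMYCN (1 to 14 rises, 8 to 14 falls, median 0.010 to 0.022), 3 to 14 in siHAND2 (3 to 13 rises, 0 to 1 falls, median 0.035 to 0.061) and 7 to 12 between the knockdowns (7 to 9 higher, 0 to 4 lower, median 0.027 to 0.047). For the further genes the ranges were 13 to 22 (3 to 10 rises, 10 to 12 falls), 11 to 19 (5 to 10 and 6 to 12) and 6 to 13 (4 to 7 and 2 to 6). Of the values of the genes named by rule under the alternatives, 1728 stayed on their side of the threshold, 123 lost the call and 38 gained it. A called value reversed direction in 1 case. The 1728 include values that were called in neither fit and changed sign, such as SF3B1 in siMYCN, at 0.03 in CPM and -0.03 with median-ratio rescaling. How many true changes under 0.5 on the log2 scale are called at this depth was not tested.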
